A study of Homo sapiens with 16 samples.

Results

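The transcripts that changed when ECC-1 cells, a human endometrial carcinoma line, were given genistein are described here, over all genes and in both directions. Libraries were chosen by their titles, which name the cell line, the agent and the replicate: 2 genistein and 2 DMSO libraries of ECC-1, 4 of the 16 libraries of the series. The treated cells received 100 nM genistein for 8 h and the control cells 0.02% DMSO, the solvent, for 8 h. Before that, both had spent 5 days in RPMI-1640 without phenol red, with 10% fetal bovine serum stripped of steroids by dextran and charcoal, and RNA was taken from 100 mm dishes. The other 12 libraries hold ECC-1 cells given 10 nM 17β-estradiol or 100 nM bisphenol A (BPA), and T-47D breast carcinoma cells given each of the 4 agents, with 2 libraries per group. Whether the replicates come from separate cultures is not in the labels. The p-values therefore reflect only the spread between replicate libraries, pooled over all 8 groups of the series, and this spread may be technical. In bulk RNA, more RNA per cell cannot be told apart from more cells of a kind.

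Genistein is an isoflavone of soybeans that binds estrogen receptors. Estrogen receptor alpha, the product of ESR1, is a nuclear receptor: once a ligand is bound, it attaches to DNA, directly at estrogen response elements or through other factors, and recruits coactivators that change the transcription of nearby genes. In the endometrium, estrogen acting through this receptor drives the growth of the epithelium, and alkaline phosphatase activity is a classical readout of estrogens in endometrial cancer cells. At doses far above those that bind the receptor, genistein is also known as an inhibitor of tyrosine kinases.

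Levels below are scaled RPKM, that is read density per length of transcript and per size of library, after a scale factor per library, so levels can also be compared between genes. Changes are log2 differences of scaled RPKM + 0.5, genistein minus DMSO, so the fold of a gene with low levels is understated. They come from a single limma fit of all 16 libraries, with 1 spread per gene shared by all groups. A gene counts as changed at a Benjamini-Hochberg adjusted p under 0.05 over the 13827 genes tested. The depth read off the smallest RPKM steps was 20.2 to 29.4 M reads in the 4 libraries, so 1 RPKM on a transcript of 2 kb stood for 40.4 to 58.8 reads. Replicates differed in log2 level with an SD over genes of 0.171 for genistein and 0.187 for DMSO. No 2 libraries held identical values. The line carried the markers of Mullerian epithelium in every library: the 7 markers summed to 381.6 and 357.5 scaled RPKM with genistein, against 354.3 and 367.9 with DMSO. The 5 general epithelial markers summed to 3408 and 3626 with genistein and to 4198 and 4321 with DMSO, a lower sum in both genistein libraries; none of the 5 passed the test. Markers of other cell types were low, at sums of 10.5 and 12.7 with genistein against 10.8 and 16 with DMSO for 8 stromal markers, 5.45 and 6.08 against 6.44 and 4.60 for 7 leukocyte markers, and 1.44 and 1.29 against 1.35 and 1.45 for 5 endothelial markers. The 7 luminal breast markers summed to 5.89 and 9.49 with genistein and to 6.25 and 6.07 with DMSO. PIP was listed at 0 in all 4 libraries, and the higher sum of the second genistein library held ANKRD30A at 3.18 and GATA3 at 0.375. The part of these marker differences in the results below was not tested.

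Genistein raised 112 genes and lowered 22. The 134 changed genes are 0.969% of the genes tested, 0.81% higher and 0.159% lower, and 1061 genes had an unadjusted p under 0.05. Genes for alkaline phosphatases, a retinaldehyde reductase, a matrix metalloproteinase, a chloride channel, a mucin and an epidermal growth factor receptor ligand were among the largest rises. Of the rises, 65 were over 2-fold and 10 over 4-fold, and of the falls 2 were over 2-fold. The rises had a median log2 change of 1.08, or 2.11-fold, with a median level of 9.48 scaled RPKM in genistein libraries and 3.46 in DMSO libraries. The falls had a median of -0.71, or 1.64-fold lower, with a median level of 4.38 in genistein libraries and 7.02 in DMSO libraries. Both genistein libraries lay outside the range of both DMSO libraries on the same side for all 134, a pattern that 21.9% of all genes tested show upwards and 29.2% downwards. Where separate groups are described for a changed gene below, this is therefore no further evidence for its change. The median of all genes tested was -0.03, and the median 95% interval reached 0.33 to either side. Of all genes tested, 6009 had a change above 0 and 7818 a change under 0. Leaving out 1 library gave 59 (first genistein), 69 (second genistein), 70 (first DMSO) and 63 changed genes (second DMSO), with 50 rises and 1 fall called in each of these 4 fits.

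**Figure D1:**
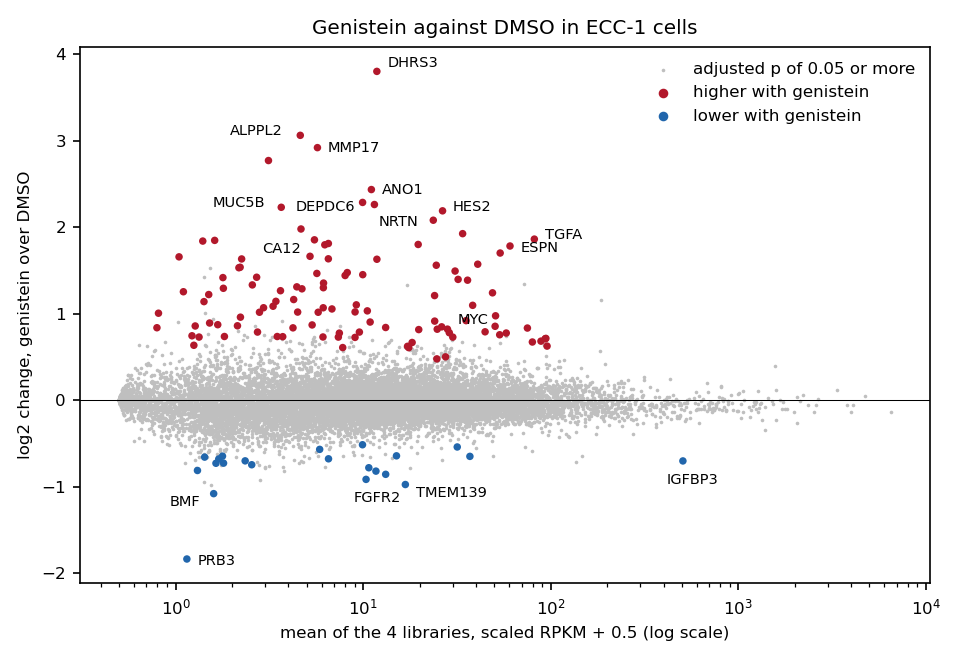
Each point is 1 of the 13827 genes tested. The horizontal axis is the mean of the 4 ECC-1 libraries in scaled RPKM + 0.5 on a log scale, the vertical axis the log2 change, genistein over DMSO; red points passed the test as higher, blue points as lower and grey points did not pass. Red points outnumber blue ones, 112 to 22, and reach further from 0.

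Changes were found at low and middling levels rather than among the most abundant transcripts. Of the 713 genes whose mean over the 4 libraries was above 100 scaled RPKM, 0 rose and 1 fell (0.14%). The changed share was 1.02% of 3546 genes between 20 and 100 and 0.885% of 4973 between 5 and 20. It was 1.31% of 3061 between 1 and 5 and 0.847% of 1534 under 1. The median interval of the most abundant genes, 0.33 to either side, was about as wide as that of the others, which was 0.31 to 0.37. The fall was that of IGFBP3, described below with the other falls.

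The placental alkaline phosphatase gene ALPP and its germ-cell neighbour ALPPL2, now named ALPG, encode surface phosphatases, and ALPP is a classical estrogen-responsive gene of endometrial cancer cells. ALPPL2 had 8.34 and 7.17 scaled RPKM in genistein libraries, against 0.378 and 0.604 in DMSO libraries, an 8.36-fold rise (log2 change 3.06, SE 0.223, limma adjusted p = 1.61e-06). ALPP had 5.50 and 4.42 in genistein libraries and 0.262 and 0.330 in DMSO libraries (2.77, SE 0.215, adjusted p = 2.45e-06). For both genes the groups were far apart, with the lowest genistein library over 10 times the highest DMSO library. The transcripts share sequence: 29.2% of the 36-base stretches of ALPP occur in ALPPL2 and 34.9% of those of ALPPL2 in ALPP, so reads of one may be counted for the other. Their promoters share it too. The 250 bases before each start, from RefSeq on GRCh38.p14, are shown because the pair rose together and because each holds the hexamer AGGTCA, from which estrogen response elements are built (in capitals), at the same distance, its first base 96 bases before the start. The shorter form GGTCA was not marked where it occurs without the leading A. Compared without gaps, 173 of the 250 positions are identical. Both lie on the + strand of chromosome 2, ALPP at chr2:232378501-232378750 and ALPPL2 at chr2:232406594-232406843.
ALPP: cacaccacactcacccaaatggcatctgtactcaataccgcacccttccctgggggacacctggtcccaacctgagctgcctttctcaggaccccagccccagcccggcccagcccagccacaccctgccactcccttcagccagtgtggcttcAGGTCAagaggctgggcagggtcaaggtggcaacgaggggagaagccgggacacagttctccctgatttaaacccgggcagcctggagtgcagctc
ALPPL2: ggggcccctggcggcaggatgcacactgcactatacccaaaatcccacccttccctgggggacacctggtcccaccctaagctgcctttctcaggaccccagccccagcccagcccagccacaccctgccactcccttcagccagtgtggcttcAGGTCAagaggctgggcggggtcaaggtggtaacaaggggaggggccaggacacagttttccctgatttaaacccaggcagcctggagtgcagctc

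The hexamer AGGTCA occurred in the promoters of changed genes at about the share seen over all genes. Windows of 300 bases, 250 before and 50 after the start, were at hand for 94 of the 134 changed genes, MYO18A and TIAF1 sharing 1 window, and both strands were searched. AGGTCA occurred in 6 of 74 windows of genes that rose (8.11%) and in 2 of 19 of genes that fell (10.5%), against 9.95% of the windows of all genes tested. The full palindromic estrogen response element, in which GGTCA is joined to its inverted copy over a short spacer, occurred in 0 of the 74 and 0 of the 19, and in 1 of 10836 windows of genes tested. The GC box GGGCGG, by contrast a common element of active promoters, occurred in 75.7% of windows of genes that rose, 52.6% of those that fell and 69.6% of all genes tested. A match describes these letters only, and elements outside the windows were not searched.

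DHRS3 showed the largest rise of all genes tested. It encodes a reductase that turns retinaldehyde back into retinol and so limits retinoic acid. Its level was 17.2 and 26.0 scaled RPKM in genistein libraries and 0.75 and 1.42 in DMSO libraries, a 14-fold rise (log2 change 3.80, SE 0.340, limma adjusted p = 1.09e-05). The second library was the higher one in each group, and both genistein libraries lay over 10 times above both DMSO libraries. It was the only changed gene of the 18 retinoid handling genes tested, whose median was -0.04 with 5 of 18 above 0. With 0.969% of all genes changed, lists of this size, here and below, would hold 0 or 1 changed gene at the overall share, so such a count is near the background. The retinoic acid receptor gene RARA, with 9.20 and 8.19 in genistein libraries and 5.61 and 6.33 in DMSO libraries, did not pass (adjusted p = 0.283).

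Several of the large rises encode secreted or membrane proteins. MMP17, the gene of a membrane-anchored matrix metalloproteinase, had 10.8 and 8.35 scaled RPKM in genistein libraries and 0.874 and 0.770 in DMSO libraries (log2 change 2.92, SE 0.168, limma adjusted p = 3.56e-07). ANO1, which encodes a calcium-activated chloride channel, had 18.8 and 17.6 in genistein libraries and 2.83 and 3.06 in DMSO libraries (2.44, SE 0.181, adjusted p = 1.61e-06). MUC5B, a gel-forming mucin gene, had 5.37 and 5.70 in genistein libraries and 0.832 and 0.738 in DMSO libraries (2.23, SE 0.155). In these 3 genes the DMSO libraries lay close to each other and the genistein libraries several-fold above them. PLAT, which encodes tissue plasminogen activator, had 7.42 and 6.46 in genistein libraries and 1.53 and 1.24 in DMSO libraries (1.98, SE 0.184). The prostaglandin transporter gene SLCO2A1 had 9.17 and 7.09 in genistein libraries and 1.73 and 2.02 in DMSO libraries (1.86, SE 0.188). Both rose without overlap between the groups, as all 112 rises did. Of the 5 mucin genes tested MUC5B alone passed, and MUC16, with 10.1 and 15 in genistein libraries and 10.9 and 11.2 in DMSO libraries, overlapped. Of the 16 genes of epithelial ion and fluid transport tested, ANO1 alone passed, and the list's median was 0.06 with 11 of 16 above 0.

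Several ligand genes rose. TGFA encodes TGF-alpha, which activates the epidermal growth factor receptor. Of the genes that rose it had the highest level in genistein libraries, at 128.8 and 126.7 scaled RPKM in genistein libraries and 35.1 and 34.4 in DMSO libraries (log2 change 1.86, SE 0.122, limma adjusted p = 7.57e-07). The receptor gene EGFR stood at 4.62 and 5.56 in genistein libraries and 4.70 and 5.97 in DMSO libraries (95% interval of the change -0.54 to 0.42). TGFA alone passed among 11 ligand and receptor genes of this family, of which 3 had a change above 0. NRTN, the gene of neurturin, a neurotrophic ligand of the GDNF family, had 41.4 and 34.0 in genistein libraries and 10.3 and 6.99 in DMSO libraries (2.08, SE 0.176). NPPC, the gene of C-type natriuretic peptide, was low, with 1.99 and 1.38 in genistein libraries and 0.124 and 0.0862 in DMSO libraries (1.84, SE 0.182). In each of the 3 ligand genes, as in all 112 rises, both genistein libraries stood above both DMSO libraries.

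Intracellular regulators were also among the rises. DEPDC6, better known as DEPTOR, an mTOR-binding inhibitor, had 17.7 and 19.3 scaled RPKM in genistein libraries and 3.80 and 3.13 in DMSO libraries (log2 change 2.26, SE 0.138, limma adjusted p = 4.41e-07), and was the one gene to pass of the 16 mTOR complex genes tested. HES2, a helix-loop-helix repressor gene, had 43.5 and 42.4 in genistein libraries and 9.20 and 8.85 in DMSO libraries (2.19, SE 0.191). G0S2, whose product inhibits the lipase that empties lipid droplets, had 13.8 and 18.2 in genistein libraries and 2.75 and 2.95 in DMSO libraries (2.29, SE 0.285). All 3 stood at more than 4 times the DMSO level, and the call of G0S2 did not hold with a pseudocount of 0.1 (2.44). The feedback genes CISH, an inhibitor of cytokine signalling, and DUSP2, a MAP kinase phosphatase, rose as well. CISH had 8.58 and 8.11 in genistein libraries and 2.90 and 3.01 in DMSO libraries (adjusted p = 0.00113). DUSP2 had 2.15 and 1.96 in genistein libraries and 0.525 and 0.557 in DMSO libraries (adjusted p = 0.000352). These were the changed genes among 19 feedback genes of receptor kinases and cytokines, whose median was 0.10. PIM1, a kinase gene induced by cytokines, had 7.65 and 7.19 in genistein libraries and 1.99 and 2.00 in DMSO libraries (adjusted p = 7.8e-06).

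Enzymes and structural genes completed the largest rises. The carbonic anhydrase genes CA12 and CA2, whose products interconvert carbon dioxide and bicarbonate, were the changed members among 6 tested. CA12 had 8.74 and 9.68 scaled RPKM in genistein libraries and 2.26 and 2.32 in DMSO libraries (log2 change 1.80, SE 0.163, limma adjusted p = 1.27e-05). CA2 had 44.0 and 48.0 in genistein libraries and 16.4 and 17.9 in DMSO libraries (1.40, SE 0.133). The other 4 lay between -0.08 and 0.31. ESPN, the gene of the actin-bundling protein espin, had 98.7 and 88.3 in genistein libraries and 26.7 and 26.8 in DMSO libraries (1.78, SE 0.133), and its pseudogene ESPNP 54.2 and 52.2 in genistein libraries and 13 and 14.3 in DMSO libraries (1.93, SE 0.143). Of the 36-base stretches of ESPNP 17.6% occur in ESPN, so the pseudogene's rise is uncertain. The sphingolipid enzyme gene DEGS2 (1.81), the cartilage matrix gene CILP (1.80) and the vesicle adaptor gene MLPH (1.85) rose too. The prostate-secreted peptide gene MSMB was listed at 0 in both DMSO libraries and at 1.25 and 0.922 in genistein libraries, at least 4.3-fold higher against a floor of 3 reads per library, a bound that covers counting error only.

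**Figure D2:**
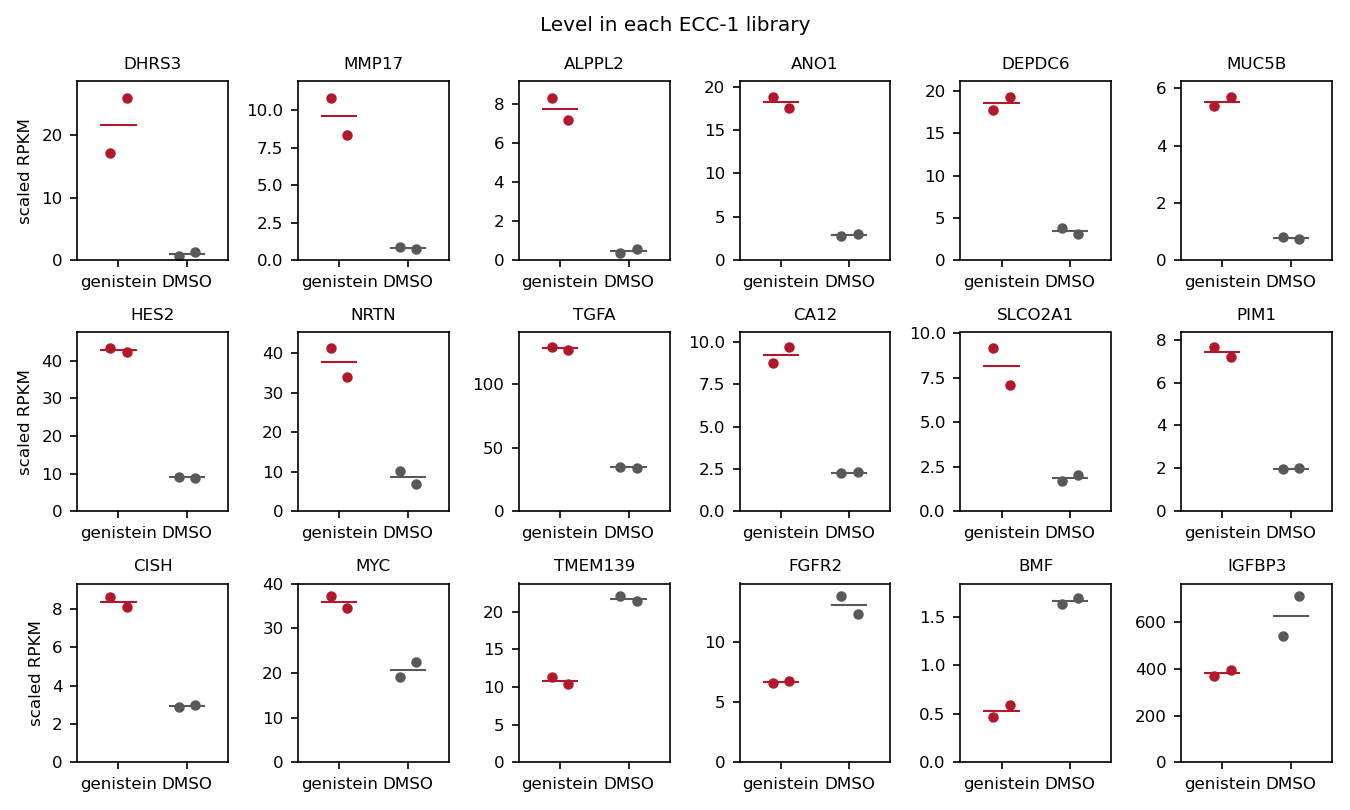
Each panel plots the level of 1 gene in scaled RPKM, on an axis from 0, in the 2 genistein libraries (red, left) and the 2 DMSO libraries (grey, right) of ECC-1; bars mark group means. In the first 14 panels, DHRS3 to MYC, both genistein points stand above both DMSO points, and in the last 4, TMEM139 to IGFBP3, below.

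The 22 falls were smaller. TMEM139, which encodes a membrane protein, had 11.3 and 10.3 scaled RPKM in genistein libraries and 22.0 and 21.5 in DMSO libraries, 1.97-fold lower (log2 change -0.97, SE 0.127, limma adjusted p = 0.000531), and was the one fall called in every alternative run. FGFR2, a fibroblast growth factor receptor gene, had 6.60 and 6.76 in genistein libraries and 13.8 and 12.3 in DMSO libraries (-0.92, SE 0.137, adjusted p = 0.00197). It was the one changed gene of 5 receptor genes of its family; FGFR4 stood at 10.7 and 9.40 in genistein libraries and 7.04 and 8.17 in DMSO libraries (0.38, adjusted p = 0.508). BMF, whose product binds and blocks anti-apoptotic BCL2 proteins, had 0.463 and 0.590 in genistein libraries and 1.64 and 1.70 in DMSO libraries (-1.08, SE 0.176, adjusted p = 0.0042), and was the one changed gene of 14 tested in the BCL2 family. For these 3 genes, as for all 22 falls, the groups were separate, at levels that for BMF were low. PRB3, a salivary proline-rich protein gene, was listed at 0 in both genistein libraries and at 1.51 and 1.08 in DMSO libraries, at least 11.9-fold lower against the floor of 3 reads per library. The adhesion receptor gene GPR110 had 8.50 and 9.26 in genistein libraries and 15.7 and 17.2 in DMSO libraries (-0.86, SE 0.128). IGFBP3, which encodes the main carrier of insulin-like growth factors in blood, had 368.7 and 397.5 in genistein libraries and 544.0 and 713.5 in DMSO libraries (-0.70, SE 0.150, adjusted p = 0.0354), the DMSO libraries differing more from each other than the genistein libraries. The zinc finger gene ZBED2 (-0.82), LMO3 (-0.81), SCEL (-0.78), NTNG1 (-0.75), CASQ1 (-0.73) and the clock output gene DBP (-0.73) fell as well.

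Most calls of falls rested on all 4 libraries. The call of FGFR2 did not pass without the first DMSO library (-0.84). BMF did not pass without the first genistein library (-0.99) or the second DMSO library (-1.06), and GPR110 did not without the same libraries (-0.80 and -0.79), nor did ZBED2 (-0.68 and -0.74). IGFBP3 did not without the first (-0.65) or second genistein library (-0.76) or the second DMSO library (-0.51). PRB3 did not pass without any 1 of the 4 libraries, at -2.01 to -1.66, nor did LMO3 (-0.90 to -0.72), SCEL (-0.87 to -0.69) and DBP (-0.83 to -0.63). NTNG1 and CASQ1 passed without the second genistein library (-0.97 and -0.85) but not without any of the other 3 (-0.75 to -0.52 and -0.77 to -0.61). All kept their sign in these fits.

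Genes linked to estrogen by earlier work rose in part. The lists and their members were chosen with earlier results of these data known, so their counts are no independent test of an estrogen response. Over all genes tested, 0.81% rose and 0.159% fell. PGR is a member of both lists below. Of 17 tested genes linked to estrogen in the endometrium, 5 rose (ALPPL2, ALPP, TGFA, CISH and PGR) and 0 fell, and 13 had a change above 0 with a median of 0.33, against -0.03 over all genes. Of 36 tested genes that estrogen induces in breast cancer cells, 6 rose (CA12, PGR, MYC, SLC9A3R1, IGFBP4 and SIAH2) and 0 fell, with 27 above 0 and a median of 0.22. On leaving out any 1 of the 4 libraries, the number that rose was 4 of the endometrial and 1 of the breast list, and with a fit on the 4 libraries alone it was 5 and 2. SLC9A3R1, a scaffold protein gene also called NHERF1, had 70.9 and 62.5 scaled RPKM in genistein libraries and 38.5 and 39.9 in DMSO libraries (0.76, limma adjusted p = 0.0143). SIAH2, a ubiquitin ligase gene, had 21.9 and 19.0 in genistein libraries and 13 and 13.1 in DMSO libraries (0.62, adjusted p = 0.0197). Both groups were apart in these 2 genes, and neither call passed without any 1 of the 4 libraries (0.67 to 0.85 and 0.52 to 0.73). The progesterone receptor gene PGR, a standard readout of estrogen action, stayed under 1 scaled RPKM, with 0.508 and 0.533 in genistein libraries and 0.0941 and 0.0478 in DMSO libraries (adjusted p = 0.0424), a call that did not pass without any 1 library (0.78 to 0.90). GREB1, a coactivator gene of the receptor, had 3.15 and 3.28 in genistein libraries and 1.99 and 1.43 in DMSO libraries and did not pass (adjusted p = 0.169). It passed in limma with the transcripts of a gene summed (1.09, adjusted p = 0.0246) and with array weights (0.76, adjusted p = 0.0106). TFF1 and CXCL12, induced by estrogen in breast cells, were listed at 0 in all 4 libraries. ESR1 itself had 17.4 and 17.6 in genistein libraries and 23.7 and 19.5 in DMSO libraries (95% interval of the change -0.67 to 0.09, adjusted p = 0.828).

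Among 26 steroid receptor and cofactor genes tested, 3 rose, including PGR, described above, and 1 fell. Over all genes tested, 0.81% rose and 0.159% fell. The list's counts were 1 and 1 with quantile normalization, 0 and 0 without the filter on low genes, and 7 and 1 with array weights. PPARGC1B, a coactivator gene of mitochondrial programmes, had 2.28 and 2.24 scaled RPKM in genistein libraries and 1.07 and 0.972 in DMSO libraries (log2 change 0.86, limma adjusted p = 0.0258). Its relative PPARGC1A had 0.721 and 0.895 in genistein libraries and 1.66 and 1.52 in DMSO libraries (-0.68, adjusted p = 0.0492). NCOA4, a coactivator gene that also directs ferritin to degradation, had 112.1 and 118.9 in genistein libraries and 75.7 and 73.6 in DMSO libraries (0.63, adjusted p = 0.0375). The groups did not overlap, and none of the 3 calls held when any 1 of the 4 libraries was left out. The changes were then 0.82 to 0.91 for PPARGC1B, -0.78 to -0.58 for PPARGC1A and 0.58 to 0.67 for NCOA4.

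Few genes of the growth-related lists passed the test, though several lists lay mostly on 1 side of 0. Over all 13827 genes tested, 6009 changes were above 0 and 7818 under 0. MYC, a growth-promoting transcription factor gene, had 37.2 and 34.5 scaled RPKM in genistein libraries and 19.0 and 22.4 in DMSO libraries (log2 change 0.78, SE 0.157, limma adjusted p = 0.0229). Its call did not pass without any 1 of the 4 libraries (0.67 to 0.90, adjusted p = 0.0774 to 0.364). The ribosome biogenesis genes had a change above 0 in 39 of 39 and a median of 0.32, but 0 passed the test. Both genistein libraries stood above both DMSO libraries in 37 of the 39, against 21.9% of all genes tested. NOP16 had 55.6 and 57.1 in genistein libraries and 35.3 and 38.4 in DMSO libraries (0.61, adjusted p = 0.154). This median was 0.31 to 0.33 under each other scaling. With the first estradiol library of each line left out of the fit, 15 of the 39 rose, 21 did with array weights and 9 with length and GC trends removed. Of 37 genes of the G1/S transition and DNA replication, CCND2, a cyclin gene, alone passed, at 4.76 and 5.07 in genistein libraries and 2.36 and 2.71 in DMSO libraries (0.84, adjusted p = 0.0392), a call that did not pass without any 1 of the 4 libraries (0.75 to 0.92). CCND1 stood at 249 and 254 in genistein libraries and 209 and 232 in DMSO libraries (adjusted p = 0.941). Of 30 mitosis genes 0 passed, with 27 under 0 and a median of -0.12, and both genistein libraries stood below both DMSO libraries in 21, against 29.2% of all genes tested. The 5 YPEL genes, of a family linked to growth arrest, were all under 0 with a median of -0.26 and 0 passed. In 4 of them both genistein libraries stood below both DMSO libraries, against 29.2% of all genes tested. YPEL5 had 7.52 and 8.38 in genistein libraries and 12.8 and 12.9 in DMSO libraries (-0.66, adjusted p = 0.0613). Estradiol and BPA, against the same DMSO libraries, moved these lists the same way. Their medians were 0.34 and 0.20 for ribosome biogenesis, -0.17 and -0.08 for mitosis, and -0.21 and -0.31 for YPEL genes. The part of the shared DMSO libraries in these shifts was not tested.

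The signalling and stress lists held 0 to 2 changed genes each, where 0.969% of all genes changed. EGR1, a rapidly induced transcription factor gene, alone passed of 21 immediate early genes, at 15 and 13 scaled RPKM in genistein libraries and 5.99 and 3.81 in DMSO libraries (log2 change 1.45, limma adjusted p = 0.0215). It did not pass without the first (1.35) or second genistein library (1.55) or the second DMSO library (1.16). HES1, a Notch target gene, had 25.5 and 25.2 in genistein libraries and 35.3 and 38.9 in DMSO libraries (-0.54, adjusted p = 0.0405) and, with HES2, was called among 12 Notch and HES genes; without any 1 of the 4 libraries (-0.61 to -0.47), or without a scale factor (-0.53), HES1 did not pass. No gene passed in limma among 6 aryl hydrocarbon receptor targets, 19 NRF2 targets, 24 p53 targets, 28 genes of unfolded protein and amino acid stress, 24 of sterol synthesis, 22 induced by interferon and 12 of estrogen metabolism. Their medians lay between -0.09 and 0.01. With no scale factor, transcripts summed or the ECC-1 libraries alone, 1 p53 target was called lower, as in some other alternatives. Array weights called 2 p53 targets higher and 2 lower. They also called 1 NRF2 target and 1 gene of unfolded protein and amino acid stress higher. CYP1A1, the classical target of the aryl hydrocarbon receptor, had 0.841 and 1.89 in genistein libraries and 1.63 and 4.90 in DMSO libraries, groups that overlapped (adjusted p = 0.652).

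**Figure D3:**
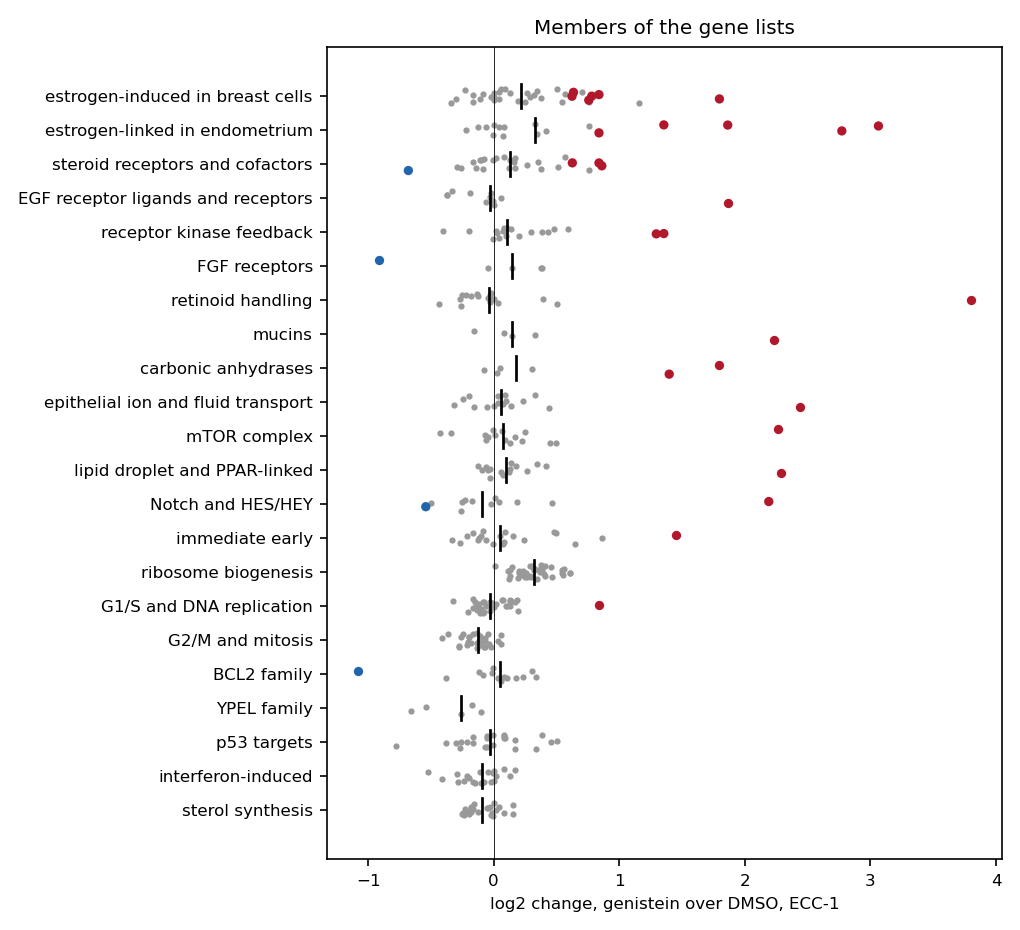
Each point is a tested gene of the list named on the left, placed by its log2 change, genistein over DMSO, in ECC-1; red points rose, blue points fell and grey points did not pass the test, and black bars mark list medians. Most lists with a red or blue point have 1 or 2 of them, far from grey points near 0, while the 39 ribosome biogenesis genes lie together at a median of 0.32.

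Changed genes often lay next to each other on the chromosome. In the gene order of RefSeq on GRCh38.p14, 34 of the 131 changed genes with a place in it (26%) had another changed gene as their direct tested neighbour, and for 32 (24.4%) that neighbour had changed in the same direction; among all 13681 tested genes with a place, 253 (1.85%) had a changed direct neighbour. Of the 20 neighbouring pairs, both genes had risen in 19 and both had fallen in 0, and in 1, FAM84B and MYC, the first had fallen and the second risen. On chromosome 1, HES2, ESPN and the death receptor gene TNFRSF25 lay in a row, with log2 changes of 2.19, 1.78 and 1.3. On chromosome 19 NRTN (2.08) was followed by the fucosyltransferase genes FUT3 (1.02) and FUT5 (1.14), and on chromosome 2 NPPC (1.84) lay 1 tested gene away from ALPP and ALPPL2. On chromosome 17 HEXDC (1.06), C17orf62 (0.85) and NARF (1.10) adjoined, on chromosome 15 RASGRP1 (0.89) and the thrombospondin gene THBS1 (1.57), on chromosome 22 MFNG (1.42) and CARD10 (1.48), and on chromosome 10 NCOA4 (0.63) and MSMB (1.66). These genes were named for their place, after their values were seen. The calls of C17orf62 and NCOA4 did not pass without any 1 of the 4 libraries (0.80 to 0.90 and 0.58 to 0.67), nor did those of FAM84B (-0.69 to -0.60) and C11orf45 (0.66 to 0.81), the antisense neighbour of KCNJ5. Without the first genistein library THBS1 (1.59), HEXDC (1.19), RASGRP1 (0.84) and MFNG (1.36) did not pass. Without the second, THBS1 (1.55), HEXDC (0.92) and FUT3 (0.90) did not. Without the first DMSO library THBS1 (1.19) and HEXDC (0.90) did not, and without the second DMSO library RASGRP1 (0.87) did not and HEXDC (1.21) stood at the threshold. All kept their sign.

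Some of these genes share sequence or overlap. FUT3 and FUT5 share 22.7% and 24.9% of their 36-base stretches. MYO18A (1.02) and TIAF1 (1.44) on chromosome 17 share 18.2% and 25.7%. Both matched the same RefSeq gene, MYO18A, so this pair is not among the 20. They are counted separately among the 134 changed genes. On chromosome 16 lie 5 of the 19 rising pairs, and several of their genes are now named as members of the same families. NPIPL3 (0.79) is now NPIPB3 and LOC100132247 is NPIPB5, while LOC100271836 is SMG1P3 and LOC641298 is SMG1P1. The rest are LOC100190986 (0.78), SLC7A5P2 and LOC653786, now OTOAP1. These pairs may therefore not be pairs of independently measured genes. MYO18A (0.98 to 1.06) and LOC100190986 (0.56 to 0.99) did not pass without any 1 of the 4 libraries, and NPIPL3 did not without the second genistein or the second DMSO library (0.65 in both). The libraries keep no strand, so reads of KCNJ5 (1.47) and its antisense neighbour C11orf45 (0.73) cannot be told apart wherever these genes overlap. Their overlap was not measured. Shared sequence of the chromosome 16 genes was not measured, and the part of shared sequence or overlap in the share of neighbours was not tested.

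Estradiol, the hormone itself, was given at 10 nM and genistein at 100 nM, so their libraries are compared across doses. In the direct test of genistein against estradiol in ECC-1, in which the DMSO libraries enter only the scaling and the spread, limma called 0 of 13827 genes (0%), and 387 had an unadjusted p under 0.05, 117 higher and 270 lower with genistein. The median 95% interval of the difference, unadjusted, reached 0.33 to either side. Without the filter on low genes 8 passed, 5 higher and 3 lower. Among the 112 rises the difference ran from -0.57 for THBS1 to 0.63 for NPPC, and among the 22 falls from -0.74 for PRB3 to 0.30 for APOBEC3B. Of the rises, 17 (15.2%) had an unadjusted p under 0.05, 16 of them lower with genistein than with estradiol, against 2.8% of all genes tested; the rises were chosen on the same genistein libraries. NPPC stood at 1.99 and 1.38 scaled RPKM with genistein and at 0.710 and 1.11 with estradiol (95% interval of the difference 0.24 to 1.02), and MUC5B at 5.37 and 5.70 with genistein and 7.60 and 6.90 with estradiol (-0.69 to -0.03). TGFA had 128.8 and 126.7 with genistein and 133.5 and 146.6 with estradiol (-0.39 to 0.13), and DHRS3 17.2 and 26.0 with genistein and 17.5 and 29.5 with estradiol (-0.83 to 0.62). None of these 4 differences passed the test. The first estradiol library of ECC-1 differed from the second by an SD of 0.343 over genes, more than in the genistein group.

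Bisphenol A, a monomer of plastics with weak estrogenic activity, was given at the same dose and time as genistein, and was the one matched pair compared. In the direct test, 6 genes differed (0.0434%), all higher with genistein: ALPPL2, ALPP, MMP17, NPPC, DEGS2 and PIM1. ALPPL2 had 8.34 and 7.17 scaled RPKM with genistein, against 3.23 and 1.81 with BPA (log2 difference 1.49, SE 0.223, limma adjusted p = 0.0181). MMP17 had 10.8 and 8.35 with genistein, against 4.14 and 3.61 with BPA (1.20, SE 0.168, adjusted p = 0.00974). PIM1 had 7.65 and 7.19 with genistein, against 2.94 and 2.66 with BPA (1.26, SE 0.143, adjusted p = 0.00346). In all 3 the genistein libraries stood above the BPA libraries with no overlap. NPPC (1.43), DEGS2 (0.92) and ALPP (1.56) had adjusted p-values of 0.008, 0.008 and 0.00974. DEPDC6 had 17.7 and 19.3 with genistein and 17.6 and 15.8 with BPA, a difference of 0.15 (SE 0.138), and the first genistein and first BPA libraries were nearly level. The count of 6 was 0 without the first genistein library or without the second BPA library, 3 without the second genistein library and 0 in a fit on the ECC-1 libraries alone.

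**Figure D4:**
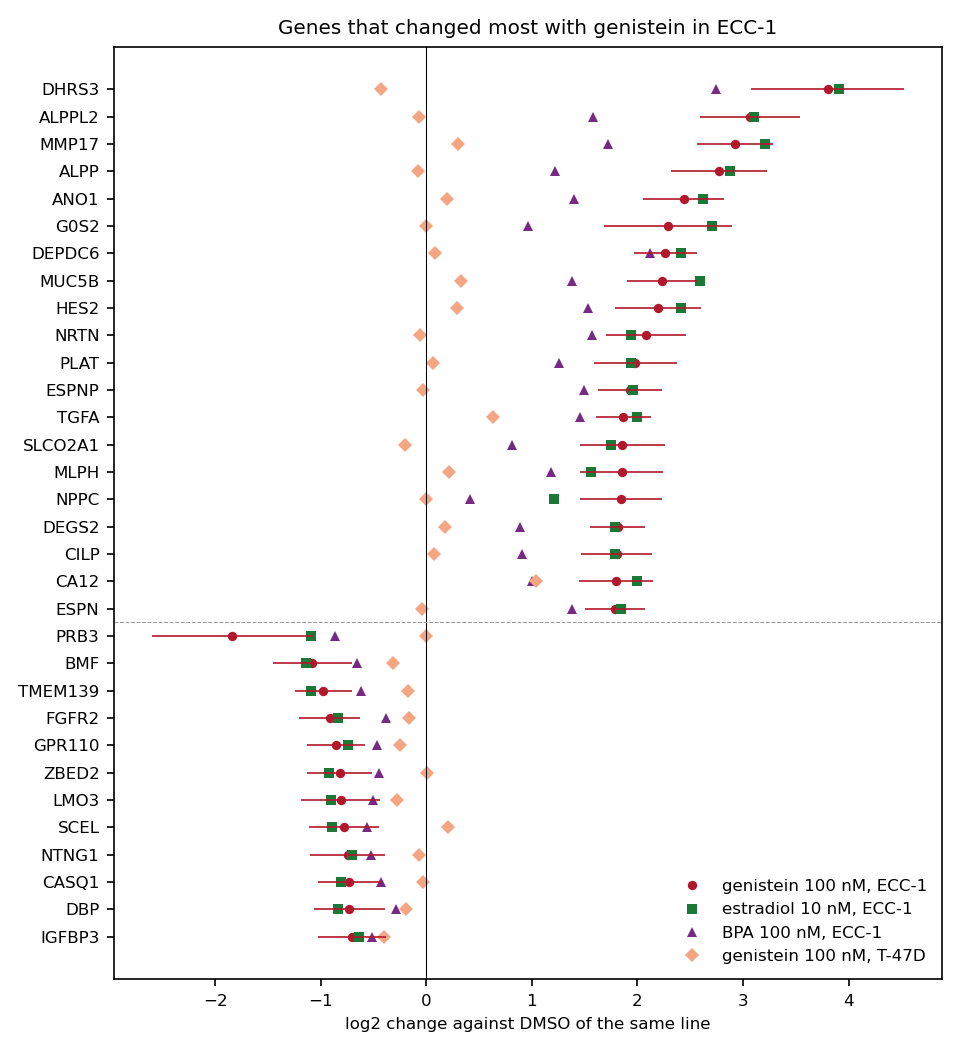
For the 20 largest rises (above the dashed line) and the 12 largest falls with genistein in ECC-1, symbols give the log2 change against DMSO of the same line for genistein, estradiol and BPA in ECC-1 and genistein in T-47D; red lines are 95% intervals of the genistein change. The 3 ECC-1 changes share the same DMSO libraries. The genes were picked by the size of their genistein change in ECC-1, which favours larger values for that comparison than for the others. Genistein and estradiol symbols lie close together, BPA symbols are nearer to 0, and most T-47D symbols are close to 0, with CA12 (1.04) and TGFA (0.63) furthest above it.

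The response to the same dose of genistein differed between ECC-1 and T-47D cells for part of the genes. Against DMSO in T-47D, genistein changed 111 of the 13827 genes tested, 108 higher and 3 lower. The difference between the lines, tested as the interaction, passed for 81 genes (0.586%), 48 with a higher change in ECC-1 (0.347%) and 33 with a higher change in T-47D (0.239%). Of the 112 genes that rose in ECC-1, 45 passed it; they were chosen on the ECC-1 libraries that enter the test. DHRS3 had 5.80 and 2.29 scaled RPKM in genistein libraries and 5.72 and 4.62 in DMSO libraries of T-47D, a change of -0.43 there against 3.80 in ECC-1 (difference 4.23, limma adjusted p = 0.000405). MMP17 had 9.91 and 8.60 in genistein libraries and 7.40 and 7.39 in DMSO libraries of T-47D (0.30 there, difference 2.62, adjusted p = 6.57e-05), so its DMSO level in T-47D was near the genistein level of ECC-1. G0S2 was listed at 0 in the genistein and DMSO libraries of T-47D. CXCL12, a chemokine gene, showed the opposite case, with 37.4 and 40.8 in genistein libraries and 3.85 and 2.26 in DMSO libraries of T-47D, and was listed at 0 in ECC-1 (difference -3.51, adjusted p = 6.57e-05). CA12 rose by 1.80 in ECC-1 and changed by 1.04 in T-47D, and CISH by 1.36 and 0.93, differences that did not pass (adjusted p = 0.322 and 1). The count of 81 was 50 without the first or the second genistein library or the first DMSO library of ECC-1, 46 without the second genistein and 48 without the second DMSO library of T-47D.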

How the data were processed

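Polyadenylated RNA was sequenced from libraries made by a transposase method that keeps no strand, per the labels' protocols. The authors deposited 1 RPKM value per RefSeq transcript and library. Reads were aligned with Bowtie to hg19, per the submitters' processing notes (read counting: not given in the sources used here). All 32062 rows cover 21453 gene symbols; 5983 symbols had several rows and kept the one of highest mean. Libraries were divided by median-ratio scale factors (0.938 to 1.05, over 7547 genes), and the 13827 genes that reached 1 RPKM in 2 or more libraries were tested.

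Log2(scaled RPKM + 0.5) was fitted with limma 3.58.1 in R 4.3.3 as 8 group means over all 16 libraries (8 residual degrees of freedom, prior 6.9), with a mean-variance trend and Benjamini-Hochberg adjustment within each contrast. The fit was tested on simulated data. It assumes 1 spread for all groups, though the estradiol groups varied more.

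Depth was estimated from RPKM steps, as the depth that put most values under 10 reads within 0.1 of a whole number. The share was 62.3 to 64.5%. The chance share of 20% holds for a depth set beforehand, so the comparison is no test of the depth.

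The text names, of changed genes whose mean reached 1 scaled RPKM in either group, the 20 largest rises, the 12 largest falls and the 6 most abundant, a panel of 10 estrogen-responsive genes, up to 6 genes per list with changed ones first, and up to 6 per direction of the other contrasts. For the rises, falls and abundant genes, both genistein libraries also had to lie outside the range of both DMSO libraries. All 134 changed genes met this. Members and lists were chosen with earlier results of these data known.

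Promoters, chromosomal order and transcript sequences are from RefSeq and GENCODE on GRCh38; 132 of the 134 changed genes matched RefSeq. No coordinates of the authors' build are given.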

Additional observations from a re-analysis of the deposited data

Results flagged for a closer look

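These results stand out because the genistein response differed between ECC-1 and T-47D in the interaction test of limma (adjusted p under 0.05); the values are the log2 change in ECC-1 minus that in T-47D. It was higher in ECC-1 for DHRS3 (4.23), ALPPL2 (3.13), ALPP (2.85), MMP17 (2.62), G0S2 (2.29, with the gene listed at 0 in T-47D) and ANO1 (2.24).

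It was higher in T-47D for CXCL12 (-3.51), OLFM1 (-1.88), NPY1R (-1.87), KCNH1 (-1.84), SUSD3 (-1.83) and FGD3 (-1.75). In ECC-1, CXCL12 was listed at 0, and OLFM1 and KCNH1 stayed under 0.02 scaled RPKM in the genistein and DMSO libraries. FGD3 was measured at 2.04 and 2.49 in genistein and 2.23 and 2.51 in DMSO libraries of ECC-1, against 9 and 10.5 in genistein and 2.94 and 2.41 in DMSO libraries of T-47D. Several of these calls did not hold in every alternative. SUSD3 did not pass without any 1 of the 8 genistein and DMSO libraries of both lines (-1.99 to -1.67), nor with quantile normalization (-1.82), a pseudocount of 0.1 (-1.67) or no filter (-1.83). G0S2 did not pass with that pseudocount (2.44) or without the filter (2.29), nor on leaving out the second genistein or either DMSO library of ECC-1, or the second genistein or either DMSO library of T-47D (2.09 to 2.33). FGD3 did not pass without the filter (-1.75) or without the first genistein or second DMSO library of ECC-1 or the second genistein or second DMSO library of T-47D (-1.68 to -1.63). NPY1R did not without the filter (-1.87) or the second DMSO library of T-47D (-1.68), and OLFM1 did not without the filter (-1.88).

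With 2 libraries a group, no check within a group can tell which library stands out. Across the ECC-1 libraries, the first estradiol library had the lowest median correlation with the others, 0.987. The other ECC-1 libraries had 0.992 to 0.997.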

How the results depend on the processing

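All 134 genes changed by genistein against DMSO kept their sign in each of the 20 alternatives that tested them, and 42 rises and 1 fall (TMEM139) were called in each. The count of 134 was 83 where a mean of 5 RPKM was required, 67 in a fit on the 4 libraries alone, 415 (288 higher and 127 lower) without the first estradiol libraries, 841 (479 and 362) with array weights and 230 (165 and 65) with length and GC trends removed. Without the filter it was 179 (123 and 56), so lower genes took a larger share in these last 4. Leaving out a library gave 59 to 70; the single library left in a group is then assumed to vary like the other groups. Genistein against estradiol called 8 without the filter (5 higher and 3 lower), against 0 as reported. Genistein against BPA (6) called 11 with a pseudocount of 1, 17 (8 higher and 9 lower) without the filter, 2 with the 5 RPKM minimum, 0 in ECC-1 alone, 14 without the first estradiol libraries, 52 with array weights and 0 to 9 with a library left out. The interaction (81) called 48 with that minimum, 145 without the first estradiol libraries, 205 with array weights, 131 with trends removed and 46 to 80 with a library left out. PDZK1 (-0.16), which did not pass, was at -0.34 to 0.014 with a library left out. The causes were not tested.

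The replicate numbers are not said to pair the libraries: same-numbered genistein and DMSO libraries of ECC-1 deviated with a correlation of -0.12, and over the 12 pairs of groups within a line it ran from -0.22 to 0.41, the highest between genistein and DMSO of T-47D. With the replicate number as a block, 147 genes were called (119 higher and 28 lower), 10 against BPA and 107 in the interaction, with 53 changes higher and 54 lower in ECC-1 against 48 and 33 without the block. With the ECC-1 DMSO numbers crossed, an alternative chosen after seeing the data, 152 were called (126 and 26).

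With 2 libraries a group, the smallest rise called was 0.48 and the smallest fall -0.51 on the log2 scale, and larger changes such as that of YPEL5 (-0.66) did not pass. Depth limits genes under 1 RPKM.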
